A study of Mus musculus with 8 samples.

Results

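The proteins that move secretory vesicles through the cell and fuse them with the plasma membrane were followed in AtT-20 cells, a mouse pituitary corticotrope tumour line that makes the ACTH precursor Pomc and stores hormone in granules. Genes were taken by symbol: the Rab GTPases, syntaxins, SNAP-25 relatives, vesicle-associated membrane proteins (VAMPs), syntaxin-binding proteins, synaptotagmins and their relatives, priming and vesicle proteins, the NSF and SNAP disassembly factors and the exocyst. The rule found 91 of the 12193 loci with values, 37 Rab GTPases and 54 fusion and other genes, and all 91 are protein-coding. The 4 groups, with 2 libraries each, were EGFR water (cells carrying EGFR, given water, labelled 3 h), EGFR EGF 3 h, EGFR EGF 18 h and Neo water. The EGF groups are the same cells given EGF for 3 h or 18 h, and Neo water is the Neo control line given water, labelled 3 h. Whether each line is 1 clone or pooled cells, which species the introduced EGFR is from and what dose of EGF was used are not in the labels. No Neo library received EGF, and no water library is labelled 18 h, so at 18 h EGF and time in culture cannot be told apart. Both EGF comparisons use the same EGFR water libraries.

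A secretory vesicle is brought to its target by Rab GTPases, which bind effectors when they carry GTP, and is held there by tethers such as the exocyst. Fusion is driven by SNARE proteins: a VAMP on the vesicle zips up with a syntaxin and a SNAP-25 relative on the target, under the control of SM and Munc13 proteins, and NSF with the SNAPs takes the complex apart afterwards. In endocrine cells such as corticotropes the last step waits for calcium, which synaptotagmins sense, so that hormone leaves on demand.

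Egfr stood at 25.9 and 27.5 FPKM in EGFR water, 28.8 and 30.6 at 3 h of EGF, 31.9 and 30.3 at 18 h of EGF, and 0.227 and 0.0663 in Neo water, which fits the labels. FPKM counts fragments per length of transcript and per depth of the library. Estimated depth was 60.4 to 71.6 M fragments per library. Small RNA genes held 29.1 to 32.8% of summed FPKM in the 6 EGFR libraries and 39.0% and 33.2% in the Neo libraries, and the part of this in the results was not tested. Of 9 corticotrope markers 8 had values, with summed levels of 8855 to 11072 FPKM. Of 9 markers of other pituitary lineages only Gata2 had values (9.02 to 13.7 FPKM) and none of the fibroblast, endothelial or blood markers did. A gene was called when its adjusted p in limma was below 0.05 over the 10874 genes tested, and fold changes were computed on log2(FPKM + 1), so that those of weakly expressed genes are understated. Separate cultures are not stated for the replicates, so p-values reflect only how far these samples spread, which may be technical variation. In bulk RNA, fewer cells of a type and less RNA per cell cannot be told apart.

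Levels, which FPKM allows to be compared between genes per unit of length, spread widely among the 91 genes. The highest was Rab11a, a Rab of recycling endosomes, at a mean of 203 FPKM over the 8 libraries (range 183 to 217 FPKM), followed by Rab2a, which works between the endoplasmic reticulum and the Golgi, at 143 FPKM. The libraries of these 2 genes did not overlap. Snap25, the plasma membrane SNARE of neurons and endocrine cells, averaged 122 FPKM, and its relative Snap47 averaged 56.7 FPKM. The highest genes of the other classes were Cplx2 and Unc13a among the priming genes (81.7 and 31.3 FPKM), Vamp8 and Vamp3 (70.7 and 48.8 FPKM) and the synaptotagmins Syt4 and Syt7 (65.9 and 49.7 FPKM). Next came Stx12 and Stx16 of the syntaxins (43.5 and 33.6 FPKM), Sytl4 and Sytl1 of the granule Rab effectors (43.0 and 4.01 FPKM) and Exoc4 and Exoc7 of the exocyst (41.8 and 34.0 FPKM). Stxbp2 averaged 39.6 FPKM, the disassembly genes Napa and Nsf 39.3 and 36.4 FPKM, and the vesicle membrane genes Syp and Syn2 34.9 and 15.1 FPKM, while Snap91, a clathrin assembly protein, averaged 40.5 FPKM. Only Rab39 (0.613 to 0.827 FPKM) and Doc2a (0.503 to 0.965 FPKM) did not reach 1 FPKM in 2 libraries, which left 89 genes for the tests, 36 Rabs and 53 others. Stx1a, Vamp2 and Rab27b, which belong to the core of regulated release, are not analysed here.

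**Figure D1:**
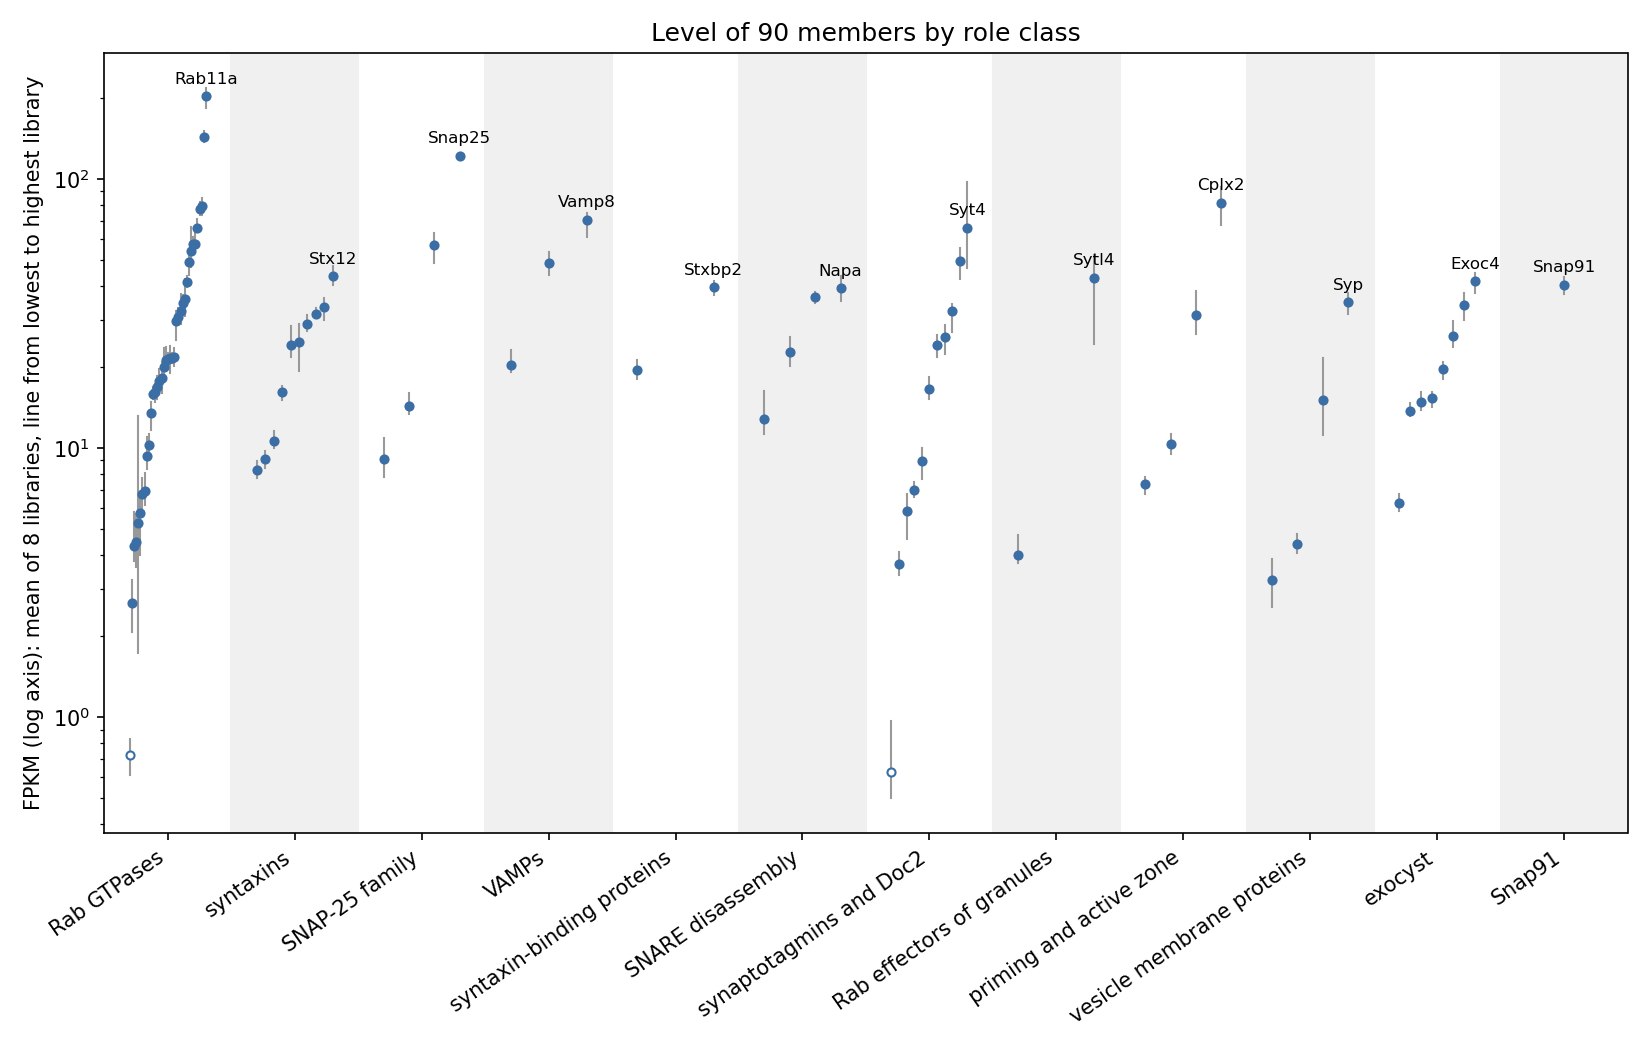
Level of 90 of the 91 genes by role, as the mean FPKM of the 8 libraries (points, log axis) with lines from the lowest to the highest library; open points mark Doc2a and Rab39, which were not tested. Rab11a is the highest gene, and the long lines belong to genes such as Rab26, Syt4 and Sytl4 whose level moved between groups.

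After 3 h of EGF, 12 of the 89 genes rose and 16 fell against EGFR water, which is 31.5% of them, while 31.5% of all genes tested were called (11.8% higher and 19.7% lower). Rab26 and Syt4, a pair of granule proteins, rose most, and Rab40c, the ER to Golgi syntaxin Stx5a and the synapsin Syn2 fell most. Of the 36 Rabs 7 rose and 4 fell, and of the 53 fusion and other genes 5 rose and 12 fell. The median log2 fold change was -0.01 over the 89 genes and -0.04 over all genes tested. Of the 89 genes 61 had groups that did not overlap (all genes tested, 70.5%). The split moved with the scaling, to 22 higher and 12 lower after median-ratio scaling and 17 and 14 after quantile normalization. Scaling to a common FPKM sum gave 14 and 5. Over all genes tested the split moved as well, from 1283 higher and 2142 lower to 1781 and 1551 after median-ratio scaling. It was 1554 and 1725 after quantile normalization and 1346 and 440 after scaling to a common FPKM sum. Without EGFR EGF 3 h 1, EGFR water 1 and EGFR water 2 the higher count was 6, 4 and 5 and the lower count 8, 7 and 8.

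Rab26, a Rab known from secretory granules and synaptic vesicles, stood at 3.83 and 3.97 FPKM at 3 h of EGF, against 1.73 and 2.18 FPKM in EGFR water. For Rab26 the log2 fold change at 3 h was 0.73 (SE 0.0957, adjusted p = 0.00223). The 2 groups did not overlap. Rab15, of early and recycling endosomes, stood at 33.1 and 33.6 FPKM at 3 h of EGF, against 29.6 and 29.5 FPKM in EGFR water. It rose by 0.17 (adjusted p = 0.00629), but its call was lost without EGFR water 2 (adjusted p up to 0.0501). Rab43, Rab18, Rab14 and Rab6a, Rabs of the Golgi, lipid droplets and endosomes, also rose, with log2 fold changes of 0.35, 0.28, 0.22 and 0.21 and adjusted p = 0.0109, 0.0198, 0.0176 and 0.0183. That of Rab43 was lost without EGFR water 1, and the others without EGFR EGF 3 h 1 or either EGFR water library. Their adjusted p reached up to 0.0589, 0.110, 0.0967 and 0.0889 over the alternatives. Rab33b, a Golgi Rab, was the last to rise (log2 fold change 0.14, adjusted p = 0.0281) and lost its call in the same way (adjusted p up to 0.132). At 3 h Rab14, at 23.87 and 21.77 FPKM, overlapped Neo water (23.42 and 23.83 FPKM). So did Rab18, at 20.46 and 19.05 FPKM, against 18.71 and 20.97 FPKM in Neo water. For both genes the EGFR water libraries lay below those of Neo water.

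Rab40c, whose protein carries a SOCS box that recruits a ubiquitin ligase, stood at 4.02 and 4.59 FPKM at 3 h of EGF, against 6.04 and 6.07 FPKM in EGFR water. For Rab40c the log2 fold change at 3 h was -0.41 (SE 0.0575, adjusted p = 0.00278). Rab5b, one of the Rabs of early endosomes, stood at 25.3 and 26.1 FPKM at 3 h of EGF, against 31.1 and 31.1 FPKM in EGFR water. For Rab5b the log2 fold change at 3 h was -0.27 (SE 0.0355, adjusted p = 0.00235). Neither gene overlapped between the groups, and both calls held under all 18 alternatives. Smaller decreases were called for Rab24, an atypical Rab linked to autophagy, at -0.18 (adjusted p = 0.0161) and for Rab3d, a granule Rab, at -0.13 (adjusted p = 0.0284). After scaling to a common FPKM sum and without EGFR EGF 3 h 1 or EGFR water 1 neither was called, nor was Rab3d without EGFR water 2. Over the alternatives the log2 fold change ran from -0.21 to -0.10 for Rab24 and from -0.16 to -0.05 for Rab3d.

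Among the fusion genes, Syt4, a synaptotagmin of granules whose first C2 domain does not bind calcium, stood at 72.8 and 64.4 FPKM at 3 h of EGF, against 46.7 and 46.9 FPKM in EGFR water. For Syt4 the log2 fold change at 3 h was 0.54 (SE 0.0602, adjusted p = 0.00122). Both libraries after 3 h of EGF lay above both EGFR water libraries. Exoc5 of the exocyst, Stx6 of the trans-Golgi and endosomes, Stx3 of the plasma membrane and the priming gene Unc13a rose as well. Their log2 fold changes were 0.24, 0.22, 0.15 and 0.18 (adjusted p = 0.0100, 0.0357, 0.0385 and 0.0112). At 3 h Stx3 (9.75 and 9.33 FPKM) and Unc13a (31.0 and 30.4 FPKM) overlapped Neo water (8.82 and 9.34, and 30.5 and 29.0 FPKM). Without EGFR water 1 all 4 of these calls were lost, with adjusted p up to 0.0661, 0.145, 0.167 and 0.0729 over the alternatives. Those of Unc13a and Stx3 were also lost without EGFR EGF 3 h 1, that of Stx6 without EGFR EGF 3 h 2, and those of Stx6 and Stx3 without EGFR water 2. That of Stx3 was lost after scaling to a common FPKM sum as well.

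Stx5a, the syntaxin of traffic between the endoplasmic reticulum and the Golgi, stood at 19.8 and 19.4 FPKM at 3 h of EGF, against 26.0 and 26.3 FPKM in EGFR water. For Stx5a the log2 fold change at 3 h was -0.40 (SE 0.0531, adjusted p = 0.00235). Syn2, which binds vesicles to the cytoskeleton in neurons, stood at 12.6 and 12.9 FPKM at 3 h of EGF, against 16.3 and 16.6 FPKM in EGFR water. For Syn2 the log2 fold change at 3 h was -0.34 (SE 0.0627, adjusted p = 0.00802). Syt2, a fast calcium sensor of synapses, stood at 7.69 and 7.82 FPKM at 3 h of EGF, against 9.99 and 9.62 FPKM in EGFR water. For Syt2 the log2 fold change at 3 h was -0.30 (SE 0.0404, adjusted p = 0.00236). None of the 3 genes overlapped between the groups. Syt13, a synaptotagmin that does not bind calcium, stood at 27.1 and 28.8 FPKM at 3 h of EGF, against 34.2 and 33.7 FPKM in EGFR water. It was lower, with a log2 fold change of -0.27 (adjusted p = 0.00234), but was not called after scaling to a common FPKM sum (adjusted p = 0.0678, range 0.000496 to 0.0678 over the alternatives). The other 8 decreases, of Snap47, Sytl4, Napg, Syt16, Stx16, Exoc7, Cadps and Cplx2, ran from -0.23 to -0.14. Each of the 8 was lost after scaling to a common FPKM sum and without at least 1 library, EGFR water 1 or EGFR water 2 in every case.

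After 18 h of EGF, 14 of the 89 genes rose and 14 fell against EGFR water, again 31.5% of them, while 31.9% of all genes tested were called (13.2% higher and 18.7% lower). Rab26, Syt4, Rab3c, Unc13a and Rab3a were among the largest increases, and the granule-docking protein Sytl4, Syn2 and Cplx2 among the largest decreases. The granule Rab Rab3d and the priming factor Cadps were not called, and Cplx2 is a priming gene too. Of the 36 Rabs 7 rose and 1 fell, and of the 53 fusion and other genes 7 rose and 13 fell, 4 of them from the 8 genes of the exocyst. The median log2 fold change was 0.05 over the Rabs, -0.06 over the fusion and other genes and -0.03 over all genes tested. The libraries of both groups did not overlap in 70 of the 89 genes (all genes tested, 72.0%). Median-ratio scaling gave 20 higher and 11 lower, quantile normalization 16 and 12 and a common FPKM sum 14 and 5. Over all genes tested 1437 were higher and 2030 lower. These became 1849 and 1617, 1630 and 1925, and 1189 and 705 under the same scalings in turn. The lower count was 7, 5, 5 and 9 without EGFR EGF 18 h 1, EGFR EGF 18 h 2, EGFR water 1 and EGFR water 2.

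Rab26 (chromosome 17, 24527241 to 24534210, minus strand, mm10) stood at 1.73 and 2.18 FPKM in EGFR water, 3.83 and 3.97 at 3 h of EGF, 13.2 and 12.2 at 18 h of EGF, and 2.79 and 2.27 in Neo water. Its libraries after 18 h of EGF lay above all 6 others, and those after 3 h lay between them and the water libraries of both lines. It averaged 12.7 ± 0.702 FPKM after 18 h of EGF and 1.95 ± 0.312 FPKM in EGFR water (SD, n = 2 each). For Rab26 the log2 fold change at 18 h was 2.21 (SE 0.0957, adjusted p = 1.28e-05). Syt4 stood at 46.7 and 46.9 FPKM in EGFR water, 72.8 and 64.4 at 3 h of EGF, 96.6 and 97.3 at 18 h of EGF, and 49.3 and 53.2 in Neo water. It also reached its highest level at 18 h, above all 6 other libraries. For Syt4 the log2 fold change at 18 h was 1.03 (SE 0.0602, adjusted p = 3.86e-05).

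Rab3c and Rab3a, members of the Rab3 family that sits on secretory vesicles, were called higher at 18 h. Rab3c stood at 3.80 and 3.87 FPKM in EGFR water, 3.88 and 3.88 at 3 h of EGF, 5.76 and 5.79 at 18 h of EGF, and 3.88 and 3.87 in Neo water. For Rab3c the log2 fold change at 18 h was 0.49 (SE 0.0443, adjusted p = 0.000283). Both libraries at 18 h lay above the 6 others. Rab3a stood at 32.6 and 31.0 FPKM in EGFR water, 32.4 and 35.7 at 3 h of EGF, 42.6 and 41.9 at 18 h of EGF, and 35.5 and 35.3 in Neo water. Its libraries at 18 h were also above the 6 others. For Rab3a the log2 fold change at 18 h was 0.40 (SE 0.0491, adjusted p = 0.00108). Rab3d of the same family stood at 17.3 and 17.0 FPKM at 18 h of EGF, against 16.7 and 16.5 FPKM in EGFR water, and was not called (log2 fold change 0.05, 95% interval -0.04 to 0.13). Rab27a, which with its effectors docks granules at the plasma membrane, stood at 23.7 and 22.5 FPKM at 18 h of EGF, against 20.2 and 20.4 FPKM in EGFR water. For Rab27a the log2 fold change at 18 h was 0.18 (adjusted p = 0.00896). Its call was lost without EGFR EGF 18 h 1 or EGFR water 1, with adjusted p up to 0.0667 over the alternatives. Rab15 stood at 29.6 and 29.5 FPKM in EGFR water, 33.1 and 33.6 at 3 h of EGF, 36.9 and 37.4 at 18 h of EGF, and 29.3 and 28.9 in Neo water. For Rab15 the log2 fold change at 18 h was 0.32 (SE 0.0292, adjusted p = 0.000285). Rab15 was lowest in the water libraries of both lines and highest at 18 h. Rab7, the Rab of late endosomes and lysosomes, rose by 0.24 on the log2 scale (adjusted p = 0.00308). Rab43 was called as well (0.25, adjusted p = 0.0348), with the call lost without EGFR water 1, either library at 18 h or either Neo library (adjusted p up to 0.180). The only Rab called lower was Rab12, an endosomal Rab (-0.12, adjusted p = 0.0478), which 11 of 18 alternatives lost.

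Unc13a, the Munc13 protein that opens the syntaxin for SNARE assembly, stood at 26.7 and 27.3 FPKM in EGFR water, 31.0 and 30.4 at 3 h of EGF, 38.5 and 37.2 at 18 h of EGF, and 30.5 and 29.0 in Neo water. For Unc13a the log2 fold change at 18 h was 0.47 (SE 0.0372, adjusted p = 0.000159). Napb, a SNAP that recruits NSF to used SNARE complexes, stood at 12.4 and 11.8 FPKM in EGFR water, 12.2 and 12.3 at 3 h of EGF, 15.2 and 16.3 at 18 h of EGF, and 11.3 and 11.5 in Neo water. For Napb the log2 fold change at 18 h was 0.35 (SE 0.0444, adjusted p = 0.00129). For both genes the libraries at 18 h lay above every other library. Syt11, another synaptotagmin that does not bind calcium, stood at 22.3 and 23.6 FPKM in EGFR water, 24.1 and 25.5 at 3 h of EGF, 28.1 and 27.0 at 18 h of EGF, and 28.8 and 27.6 in Neo water. It rose by 0.25 at 18 h (adjusted p = 0.00594), where its libraries lay close to those of Neo water. Rims2, an active zone scaffold that binds Rab3, and Stx7, of late endosomes, rose by 0.18 and 0.17 (adjusted p = 0.0101 and 0.0441, and adjusted p up to 0.0647 and 0.162 over the alternatives). Both calls were lost without EGFR EGF 18 h 1 or either EGFR water library. That of Stx7 was also lost without EGFR EGF 18 h 2 and after scaling to a common FPKM sum.

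Sytl4, or granuphilin, binds Rab27a and docks granules. The gene (chromosome X, 133936385 to 133981812, minus strand, mm10) stood at 51.8 and 52.3 FPKM in EGFR water, 42.9 and 46.3 at 3 h of EGF, 25.8 and 24.5 at 18 h of EGF, and 49.9 and 50.1 in Neo water. Both libraries at 18 h lay below all 6 others, at a mean of 25.1 ± 0.911 FPKM at 18 h of EGF and 52.0 ± 0.289 FPKM in EGFR water (SD, n = 2 each). For Sytl4 the log2 fold change at 18 h was -1.02 (SE 0.0433, adjusted p = 1.13e-05). At 3 h it was lower, with a log2 fold change of -0.22 (adjusted p = 0.0103), a call lost without either EGFR water library (adjusted p up to 0.184). Syn2 stood at 16.3 and 16.6 FPKM in EGFR water, 12.6 and 12.9 at 3 h of EGF, 11.2 and 11.4 at 18 h of EGF, and 21.6 and 18.6 in Neo water. For Syn2 the log2 fold change at 18 h was -0.50 (SE 0.0627, adjusted p = 0.00115). Cplx2, a complexin that clamps and primes the SNARE complex, stood at 90.7 and 85.8 FPKM in EGFR water, 79.4 and 80.5 at 3 h of EGF, 67.6 and 68.6 at 18 h of EGF, and 93.3 and 87.5 in Neo water. For Cplx2 the log2 fold change at 18 h was -0.37 (SE 0.0420, adjusted p = 0.000807). For both genes the libraries at 18 h were the lowest of all 8.

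Among the calcium sensors of endocrine granules, Syt7, of slow release, stood at 44.0 and 42.6 FPKM at 18 h of EGF, against 51.7 and 52.7 FPKM in EGFR water. For Syt7 the log2 fold change at 18 h was -0.26 (SE 0.0391, adjusted p = 0.00253). Syt9 stood at 5.12 and 4.60 FPKM at 18 h of EGF, against 6.03 and 6.75 FPKM in EGFR water. It was lower, with a log2 fold change of -0.34 (adjusted p = 0.00971), and its call was lost without EGFR EGF 18 h 2 or EGFR water 2 (adjusted p up to 0.0607). For both sensors the libraries at 18 h lay below those of EGFR water. Of the other synaptotagmins, Syt5 (-0.20) and Syt16 (-0.18) were lower too, with adjusted p = 0.0110 and 0.0296. Both calls were lost after scaling to a common FPKM sum and without EGFR EGF 18 h 2 or EGFR water 1, that of Syt16 also without the other library of either group. Syt1, the fast sensor of synaptic release, was not called, at 15.9 and 15.2 FPKM at 18 h of EGF, against 15.9 and 17.3 FPKM in EGFR water (log2 fold change -0.09, 95% interval -0.21 to 0.03). Napg, a SNAP of constitutive traffic, fell by 0.28 on the log2 scale at 18 h (adjusted p = 0.00800). Its call was lost after scaling to a common FPKM sum and without EGFR EGF 18 h 1 or EGFR water 1 (log2 fold change -0.33 to -0.24 over the alternatives). The exocyst genes Exoc1, Exoc2, Exoc4 and Exoc6 were lower, with a log2 fold changes of -0.17, -0.15, -0.20 and -0.12 (adjusted p = 0.0131, 0.0129, 0.0317 and 0.0430), and so was Snap91, at -0.16 (adjusted p = 0.0176). These 5 calls were all lost after scaling to a common FPKM sum and without EGFR EGF 18 h 1, EGFR EGF 18 h 2 or EGFR water 1, with adjusted p up to 0.145, 0.187, 0.163, 0.361 and 0.117.

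**Figure D2:**
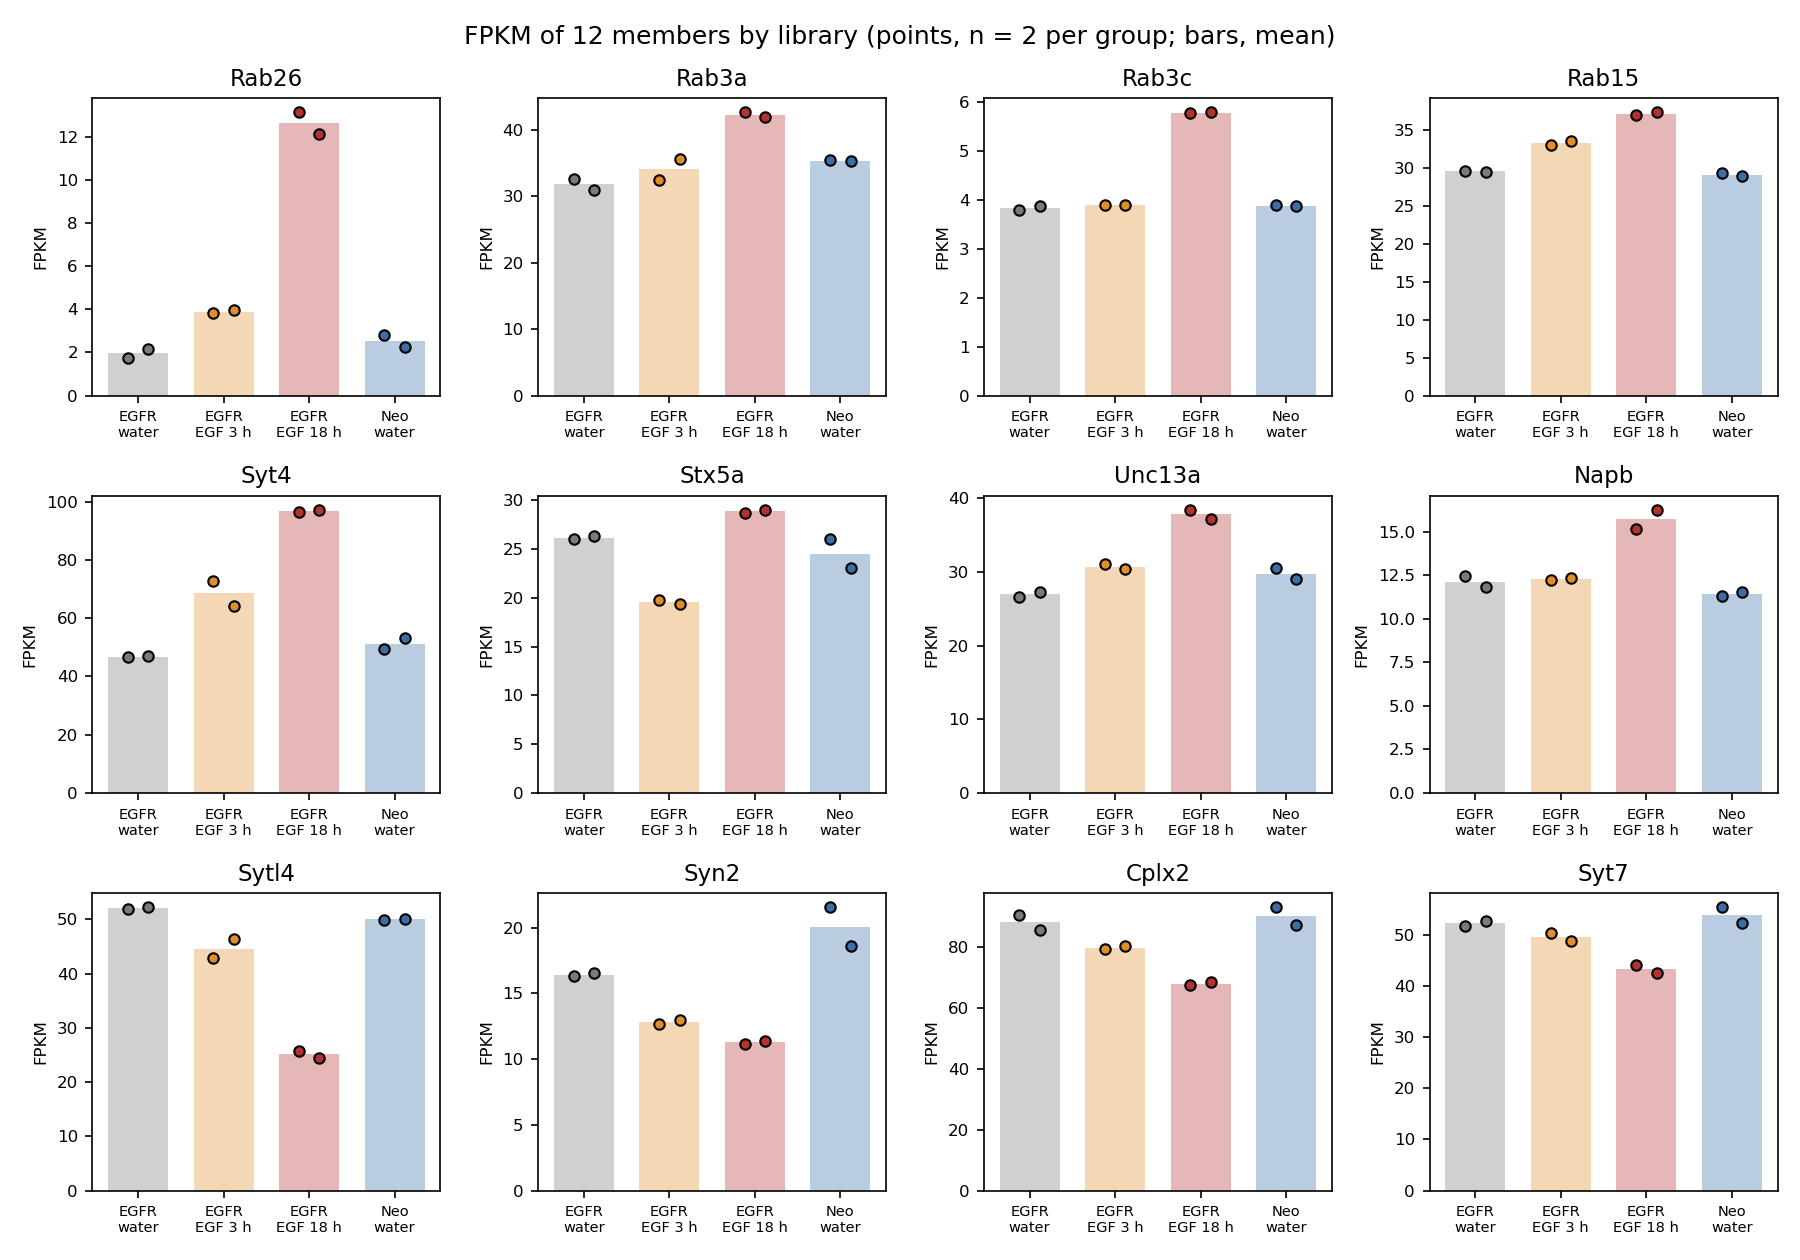
FPKM of 12 genes in each of the 8 libraries (points) with the mean of each group (bars), in the order EGFR water, EGFR EGF 3 h, EGFR EGF 18 h and Neo water. Rab26 and Syt4 step up at 3 h and again at 18 h, Rab3a and Rab3c are highest at 18 h, Stx5a is lowest at 3 h, and Sytl4 is lowest at 18 h.

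Snap25 and Nsf, from the core of SNARE fusion, showed no called difference at either time. Snap25 stood at 125 and 123 FPKM in EGFR water, 125 and 121 at 3 h of EGF, 121 and 119 at 18 h of EGF, and 121 and 123 in Neo water. Nsf, the ATPase that pulls SNARE complexes apart, stood at 36.8 and 36.2 FPKM in EGFR water, 36.8 and 37.9 at 3 h of EGF, 37.3 and 36.4 at 18 h of EGF, and 35.5 and 34.6 in Neo water. In both genes the groups overlapped or lay close together. The 95% intervals at 18 h were -0.12 to 0.03 for Snap25 and -0.06 to 0.09 for Nsf on the log2 scale. Cadps, a priming factor of dense core granules, stood at 7.10 and 7.30 FPKM at 18 h of EGF, against 7.80 and 7.76 FPKM in EGFR water, and was not called (log2 fold change -0.10, 95% interval -0.19 to -0.00). At 3 h Cadps was lower, with a log2 fold change of -0.16 (adjusted p = 0.0262), a call lost without EGFR EGF 3 h 1 or either EGFR water library (adjusted p up to 0.371). At 3 h limma called 4 of the 10 syntaxins, 1 of the 4 genes of the SNAP-25 family and 0 of the 3 VAMPs (2 at an unadjusted p below 0.05), while 31.5% of all genes tested were called. At 18 h it called 1 of the syntaxins, Stx7, 0 of the SNAP-25 family (1 at an unadjusted p below 0.05) and 0 of the VAMPs (1 at an unadjusted p below 0.05), while 31.9% of all genes tested were called. At 18 h against 3 h it called 2 of the syntaxins, 2 of the SNAP-25 family and 2 of the VAMPs, while 33.7% of all genes tested were called. Over all comparisons 33 of the 89 genes were never called, 16 Rabs and 17 others. The widest value among them was that of Rab1a, of traffic between the endoplasmic reticulum and the Golgi, at 3 h (log2 fold change 0.34, adjusted p = 0.0521). At 18 h against EGFR water the 33 ran from -0.19 to 0.15.

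Promoter sequences are shown for 3 genes higher at 18 h, Rab3a, Rab3c and Unc13a, and for Sytl4, which was lower, because these move in opposite directions late after EGF. Rab26, for which no window was found, and Syt4 rose more and are not shown. Each sequence shown is 300 bases of the mouse genome from RefSeq (GRCm38.p6, the mm10 assembly) around the annotated start, 5′ to 3′ on the strand of the gene. Capitals mark the half-site of the cAMP response element (TGACG, here always on the other strand and so read CGTCA) and the STAT motif TTCNNNGAA. 
Rab3a, chr8:70754453-70754752, plus strand: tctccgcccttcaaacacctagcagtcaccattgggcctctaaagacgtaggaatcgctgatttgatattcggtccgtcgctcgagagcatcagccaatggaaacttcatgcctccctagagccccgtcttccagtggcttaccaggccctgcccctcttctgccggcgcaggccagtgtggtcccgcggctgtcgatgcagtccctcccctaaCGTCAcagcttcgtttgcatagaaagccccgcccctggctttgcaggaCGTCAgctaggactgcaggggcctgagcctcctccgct
Rab3c, chr13:110280157-110280456, minus strand: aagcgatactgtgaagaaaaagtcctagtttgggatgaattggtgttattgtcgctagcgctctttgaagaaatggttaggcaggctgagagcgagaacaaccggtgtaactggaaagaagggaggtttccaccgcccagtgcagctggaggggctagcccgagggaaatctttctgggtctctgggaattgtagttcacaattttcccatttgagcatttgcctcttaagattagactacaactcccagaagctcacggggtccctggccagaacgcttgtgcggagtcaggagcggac
Unc13a, chr8:71671708-71672007, minus strand: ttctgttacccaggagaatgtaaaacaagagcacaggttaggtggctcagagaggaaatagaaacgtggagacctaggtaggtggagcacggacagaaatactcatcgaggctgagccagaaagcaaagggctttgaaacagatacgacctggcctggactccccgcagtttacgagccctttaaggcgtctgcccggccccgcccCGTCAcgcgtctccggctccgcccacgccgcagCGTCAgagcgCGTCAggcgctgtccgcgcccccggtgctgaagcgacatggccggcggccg
Sytl4, chrX:133981763-133982062, minus strand: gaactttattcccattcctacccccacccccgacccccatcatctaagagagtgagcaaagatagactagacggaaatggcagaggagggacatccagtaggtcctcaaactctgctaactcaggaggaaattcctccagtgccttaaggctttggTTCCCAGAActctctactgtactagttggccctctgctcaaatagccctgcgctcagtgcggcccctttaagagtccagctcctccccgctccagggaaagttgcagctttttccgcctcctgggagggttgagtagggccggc
The Rab3a window shown holds 2 half-sites, at bases 215 to 219 and 263 to 267, Unc13a holds 3, at bases 207 to 211, 240 to 244 and 250 to 254, Sytl4 holds 1 STAT match at bases 157 to 165, and Rab3c holds neither motif. Another window of Rab3a, at a second annotated start, holds neither, and so do the windows of Napb, which rose, and Cplx2, which fell. Of the 4 windows of Rab15, which rose, 1 holds the STAT motif, as does 1 of the 2 windows of Syn2, which fell, and none of these 6 holds the half-site. Both strands were searched, and every full element TGACGTCA also counts as a half-site. Of 100 promoter windows found for 78 of the 91 genes, 33 held the half-site, against 20.8% of all 32851 windows, and 10 held the STAT motif, against 8.30%. The full element stood in 3 of the 100 windows, of Napa, Rab5a and Syn1, against 1.79% of all, and the AP-1 motif TGANTCA in 5, against 7.81%. The ETS motif CCGGAAGT stood in 7 windows, against 3.89% of all, but in only 4 of the 78 genes. Several of these windows are overlapping ones of Exoc1 that hold the same site. CAGCTG stood in 22 windows, of 21 genes, against 16.3% of all windows. A match in a window is a description of its letters only.

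The EGF times were then compared with each other. With no water library at 18 h, length of EGF treatment and time in culture cannot be told apart in this comparison. Of the 89 genes 25 were higher and 15 lower at 18 h than at 3 h, while 33.7% of all genes tested were called (17.7% higher and 16.0% lower). Of the 36 Rabs 13 were higher and 4 lower, and of the 53 fusion and other genes 12 were higher and 11 lower. The median log2 fold change was -0.014 over the 89 genes, -0.0006 over the Rabs and 0.008 over all genes tested. The groups did not overlap in 69 genes (all genes tested, 68.3%). Scaling to a common FPKM sum gave 11 higher and 13 lower. Over all genes tested this scaling moved the counts from 1922 higher and 1741 lower to 863 and 1330. Without EGFR EGF 18 h 1 the counts were 13 and 5, and without EGFR EGF 18 h 2 and EGFR EGF 3 h 1 the lower count was 6 each. Rab26 was higher at 18 h than at 3 h by 1.48 (SE 0.0957, adjusted p = 0.000173), and Syt4 by 0.50 (SE 0.0602, adjusted p = 0.00165). Unc13a was higher by 0.29 (adjusted p = 0.00199). Sytl4 was lower at 18 h than at 3 h, with a log2 fold change of -0.80 (SE 0.0433, adjusted p = 0.000109), and so was Cplx2, at -0.23 (adjusted p = 0.00706). These 5 genes thus moved on between the times in the direction they had against EGFR water. Rab3c, Napb and Rab3a, not called at 3 h, were higher at 18 h than at 3 h by 0.47, 0.33 and 0.31 (adjusted p = 0.000654, 0.00226 and 0.00423).

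A second set had been lower at 3 h and was higher at 18 h than at 3 h. Both comparisons use the same EGFR EGF 3 h libraries, so their calls are not independent. Stx5a stood at 26.0 and 26.3 FPKM in EGFR water, 19.8 and 19.4 at 3 h of EGF, 28.7 and 29.0 at 18 h of EGF, and 26.0 and 23.1 in Neo water. Both its libraries at 3 h lay below the 6 others. For Stx5a the log2 fold change between 18 h and 3 h was 0.54 (SE 0.0531, adjusted p = 0.000784). Rab40c stood at 6.04 and 6.07 FPKM in EGFR water, 4.02 and 4.59 at 3 h of EGF, 5.87 and 5.86 at 18 h of EGF, and 6.83 and 6.66 in Neo water. For Rab40c the log2 fold change between 18 h and 3 h was 0.37 (SE 0.0575, adjusted p = 0.00371). Rab5b stood at 31.1 and 31.1 FPKM in EGFR water, 25.3 and 26.1 at 3 h of EGF, 30.0 and 30.3 at 18 h of EGF, and 32.4 and 30.8 in Neo water. For Rab5b the log2 fold change between 18 h and 3 h was 0.22 (SE 0.0355, adjusted p = 0.00410). In both Rabs as well the libraries at 3 h were the lowest of the 8. Rab24 (log2 fold change 0.27, adjusted p = 0.00322) and Syt13 (log2 fold change 0.22, adjusted p = 0.00446) went the same way, though Syt13 was not called after scaling to a common FPKM sum. At 18 h against EGFR water none of the 5 was called, with log2 fold changes of 0.14 for Stx5a (95% interval 0.01 to 0.26), -0.04 for Rab40c (-0.18 to 0.09), -0.04 for Rab5b (-0.13 to 0.04), 0.09 for Rab24 (0.00 to 0.19) and -0.05 for Syt13 (-0.13 to 0.03). Syt2, Snap47 and Rab3d had also been lower at 3 h. They were higher at 18 h than at 3 h by 0.20, 0.20 and 0.18 (adjusted p = 0.00972, 0.00950 and 0.00916). Their calls between the times were lost after scaling to a common FPKM sum and without EGFR EGF 18 h 1.

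Exoc5 showed the opposite order, at 24.5 and 25.5 FPKM in EGFR water, 29.8 and 29.8 at 3 h of EGF, 23.7 and 23.9 at 18 h of EGF, and 24.6 and 27.1 in Neo water. Both its libraries at 3 h lay above the 6 others, and its calls at 3 h and between the times share these libraries. For Exoc5 the log2 fold change between 18 h and 3 h was -0.31 (SE 0.0478, adjusted p = 0.00364). Vamp3, the SNARE of recycling endosomes, was lower at 18 h (log2 fold change -0.24, adjusted p = 0.00589), at 43.9 and 45.1 FPKM after 18 h, against 53.7 and 51.7 FPKM after 3 h. Rab8b, of traffic from the Golgi to the plasma membrane, was lower, with a log2 fold change of -0.39 (adjusted p = 0.0137), a call lost without EGFR EGF 18 h 1 or EGFR EGF 3 h 1 (adjusted p up to 0.0771). Syt9 (-0.22, adjusted p = 0.0465) and Syt7 (-0.19, adjusted p = 0.0109) were lower, and their calls were lost without EGFR EGF 18 h 2 or EGFR EGF 3 h 1, that of Syt9 also without 4 other libraries (adjusted p up to 0.219 and 0.0673). Rab27a (0.18, adjusted p = 0.00845) and Rab3d (0.18, adjusted p = 0.00916) were higher, and both calls were lost without EGFR EGF 18 h 1 and after scaling to a common FPKM sum (adjusted p up to 0.126 and 0.112).

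**Figure D3:**
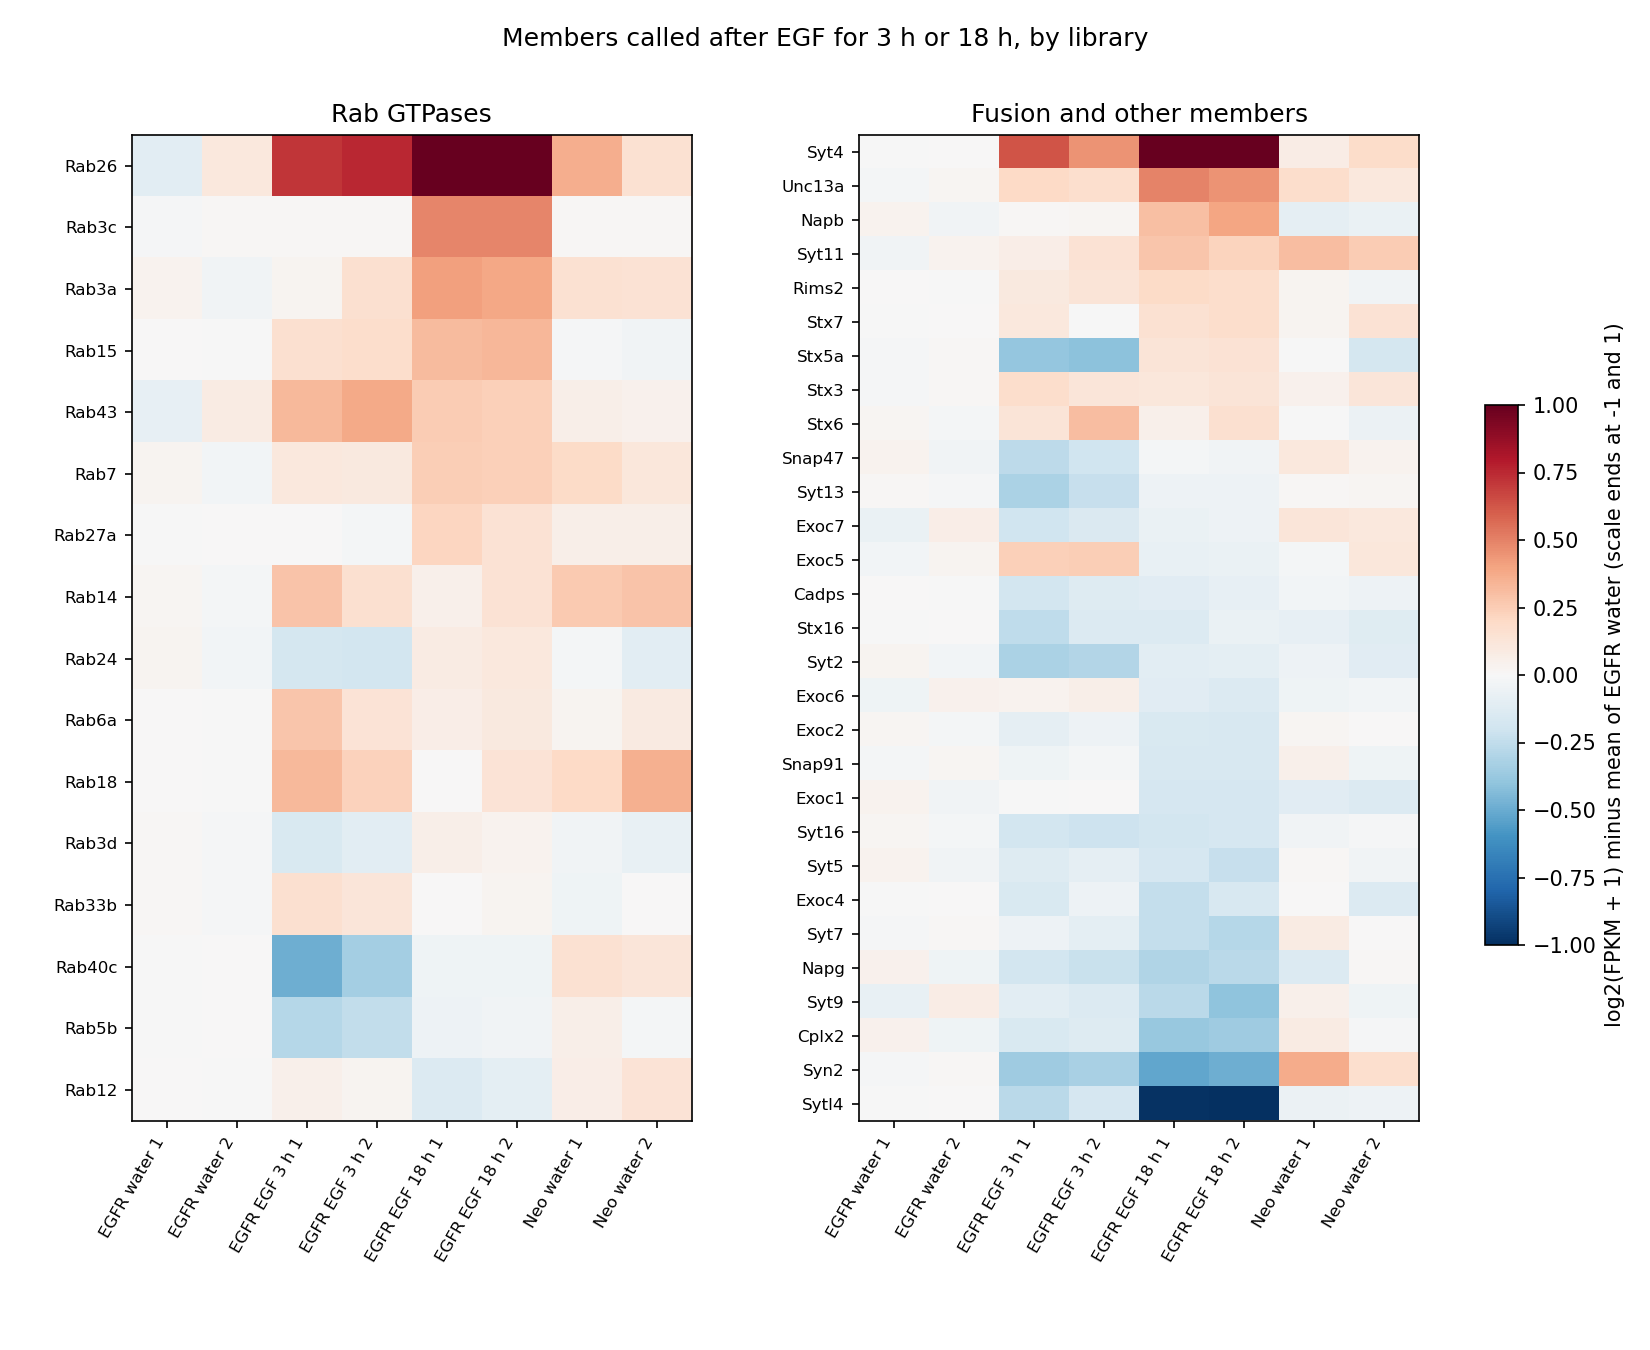
Log2(FPKM + 1) of each library minus the mean of EGFR water for the 16 Rabs and 29 other genes called after EGF for 3 h or 18 h (red higher, blue lower, colours end at -1 and 1). Rab26 and Syt4 deepen with time, Rab3c colours at 18 h, Stx5a, Rab40c and Rab5b are blue at 3 h, and Sytl4 is the deepest blue at 18 h.

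The next comparison set the 2 lines side by side in water, without added EGF. In EGFR water against Neo water limma called 0 of the 89 genes higher and 2 lower (2 and 12 at an unadjusted p below 0.05), while 6.01% of all genes tested were called (3.11% higher and 2.90% lower). The lines did not overlap in 45 genes (all genes tested, 57.8%). Rab14, of the trans-Golgi and endosomes, stood at 19.7 and 19.1 FPKM in EGFR water, against 23.4 and 23.8 FPKM in Neo water. For Rab14 the log2 fold change between the lines was -0.27 (adjusted p = 0.0298). The rise of Rab14 at 3 h of EGF was measured against the same EGFR water libraries. Syt11 stood at 22.3 and 23.6 FPKM in EGFR water, against 28.8 and 27.6 FPKM in Neo water. For Syt11 the log2 fold change between the lines was -0.28 (adjusted p = 0.0186). Neither gene overlapped between the lines, but both calls were lost when any 1 of the 4 libraries was left out (adjusted p up to 0.164 and 0.131), and scaling to a common FPKM sum gave 0 calls. None of the 10 core genes with values was called, and their log2 fold changes ran from -0.15 for Rab3a to 0.06 for Nsf. The lower count was 5 after median-ratio scaling or quantile normalization, and 6 when only protein-coding genes were tested. Over all genes tested the lower count was 315, and became 441 after median-ratio scaling and 400 after quantile normalization. It was 444 among protein-coding genes and 103 after scaling to a common FPKM sum.

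**Figure D4:**
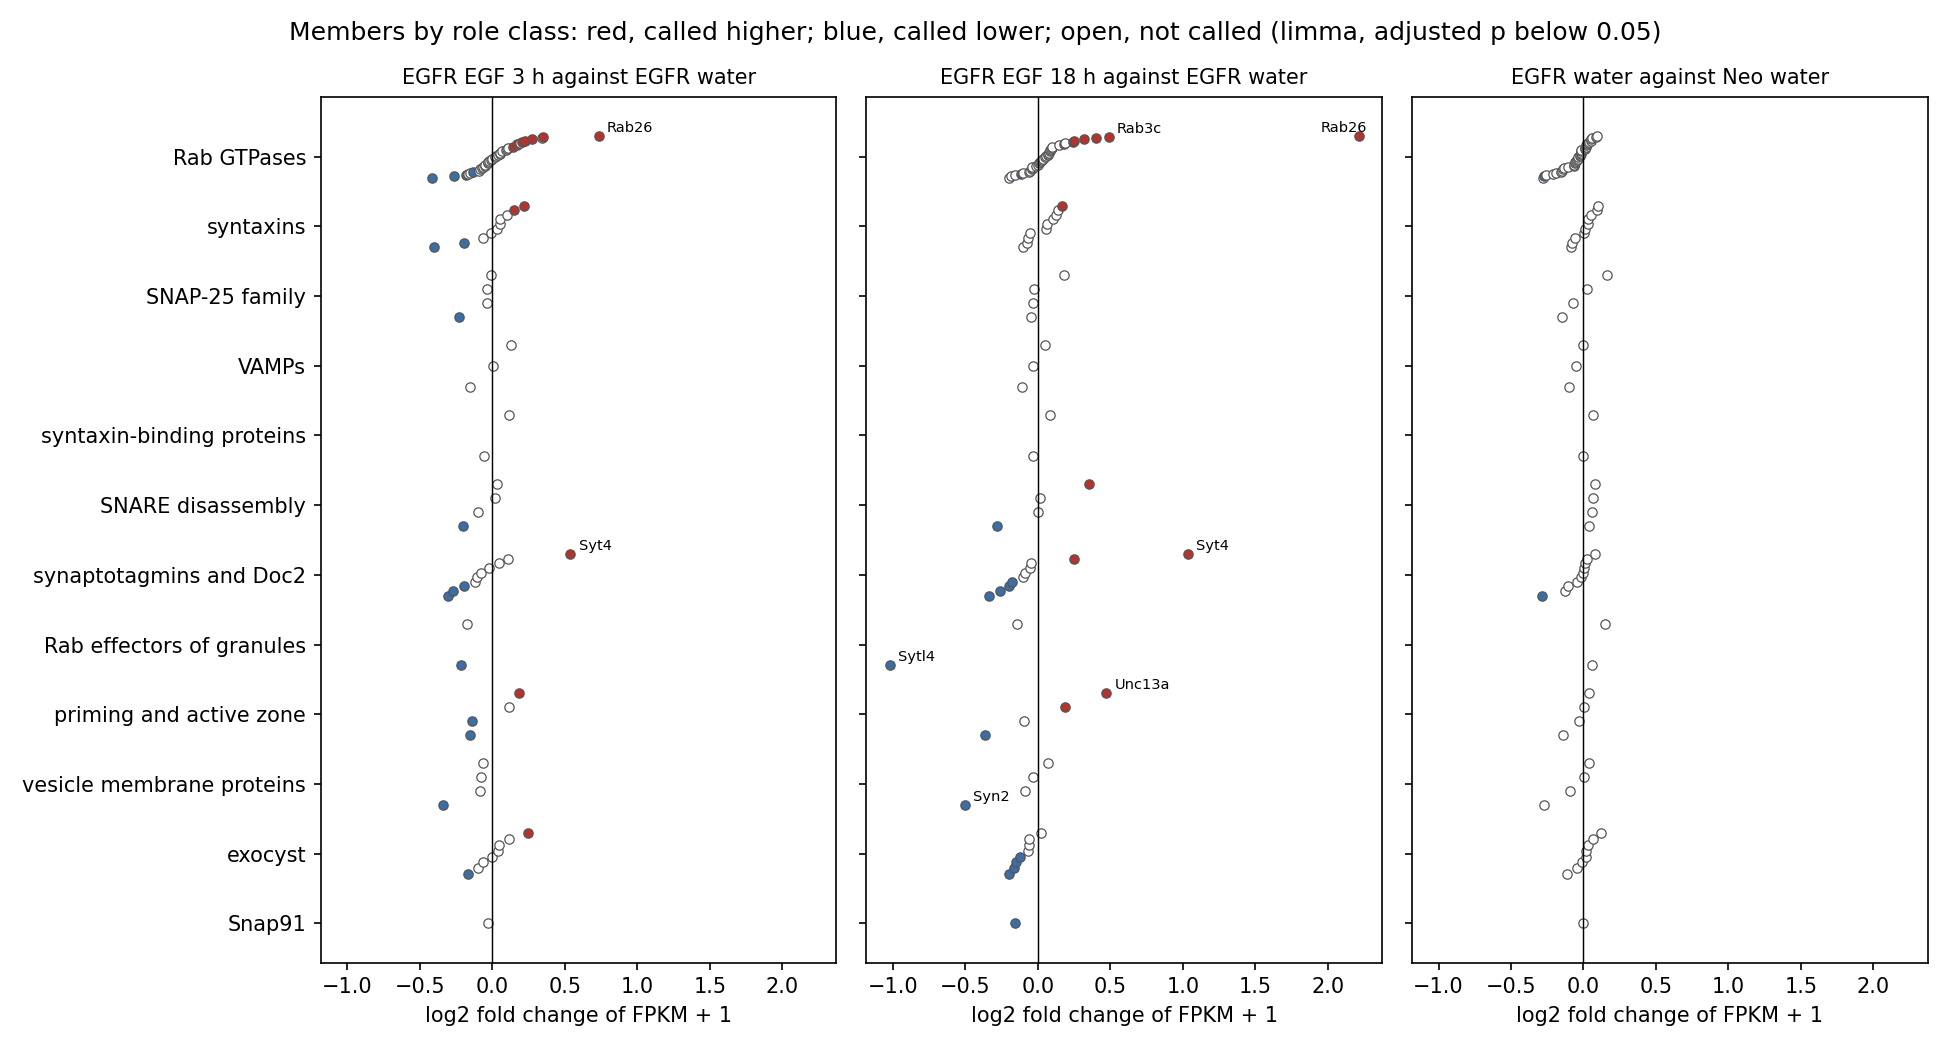
Log2 fold change of 88 of the 89 tested genes by role for EGF 3 h against EGFR water, EGF 18 h against EGFR water, and EGFR water against Neo water (red called higher, blue called lower, open not called). Rab26 and Syt4 lie farthest to the right at both EGF times, Sytl4 lies farthest to the left at 18 h, and 2 genes are called between the lines.

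Genes of 4 neighbouring steps, listed apart from the 89, were read beside them. Of 33 genes of granule formation and calcium entry with values, 8 rose and 6 fell at 3 h (all genes tested, 11.8% higher and 19.7% lower), and 15 rose and 4 fell at 18 h (all genes tested, 13.2% and 18.7%). At 18 h against 3 h 18 were higher and 4 lower (all genes tested, 17.7% and 16.0%). The median log2 fold change at 18 h against EGFR water was 0.13 over the list and -0.03 over all genes tested. Vgf, a granule protein cut into peptides, stood at 28.6 and 29.4 FPKM in EGFR water, 56.6 and 58.0 at 3 h of EGF, 95.1 and 92.4 at 18 h of EGF, and 36.5 and 33.0 in Neo water. For Vgf the log2 fold change at 18 h was 1.66 (adjusted p = 2.15e-06). Scg2, a secretogranin, stood at 123 and 119 FPKM in EGFR water, 121 and 129.7 at 3 h of EGF, 265 and 263 at 18 h of EGF, and 132 and 131 in Neo water. For Scg2 the log2 fold change at 18 h was 1.11 (adjusted p = 4.73e-06). Anxa2, an annexin that binds calcium and membranes, rose by 0.80 at 18 h (adjusted p = 3.83e-05), and Chgb, a chromogranin, was higher by 0.56 at 18 h than at 3 h (adjusted p = 0.000494). At 3 h Vgf (0.96, adjusted p = 5.08e-05), the calcium channel gene Cacna1b (0.45, adjusted p = 0.00438) and Anxa2 (0.35, adjusted p = 0.00232) rose. Anxa2 at 3 h (85.3 and 91.2 FPKM) lay above EGFR water (68.4 and 69.5 FPKM) but below Neo water (99.2 and 107 FPKM). In EGFR water against Neo water limma called 0 of the 33 higher (2 at an unadjusted p below 0.05) and 2 lower. These were Anxa2 (-0.57, adjusted p = 0.000962) and Vgf (-0.25, adjusted p = 0.0316). The call of Vgf was lost after scaling to a common FPKM sum and without Neo water 1, either EGFR water library or either EGFR EGF 18 h library.

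Of 50 genes of coats and endocytosis, 9 rose and 3 fell at 3 h (all genes tested, 11.8% higher and 19.7% lower). At 18 h 12 rose and 1 fell (all genes tested, 13.2% and 18.7%). Between 18 h and 3 h 9 were higher and 1 lower (all genes tested, 17.7% and 16.0%). Called in either direction were 31.5%, 31.9% and 33.7% of all genes tested in these 3 comparisons. The counts of the next pair of lists are to be read against these shares. Synj2, a lipid phosphatase of endocytosis, stood at 2.13 and 2.20 FPKM in EGFR water, 8.35 and 7.91 at 3 h of EGF, 8.43 and 7.72 at 18 h of EGF, and 2.20 and 2.23 in Neo water. Synj2 rose at both times, by 1.53 at 3 h (adjusted p = 1.02e-05) and 1.52 at 18 h (adjusted p = 6.00e-06). Epn2 and Ap3s1 rose by 0.38 and 0.33 at 3 h (adjusted p = 0.0103 and 0.0177), and both calls were lost without EGFR EGF 3 h 1, that of Ap3s1 also without EGFR water 2. Ap3s1 at 3 h (17.2 and 15.2 FPKM) overlapped Neo water (15.4 and 16.9 FPKM). Of 44 Rab regulators and effectors 5 rose and 3 fell at 3 h, 5 rose and 5 fell at 18 h, and 4 were higher and 4 lower at 18 h than at 3 h. Each of these shares lies below that of all genes tested. Rab11fip4, an effector of Rab11, rose at 3 h (0.33, adjusted p = 0.000552) and at 18 h (0.36, adjusted p = 0.000213). Eea1, the tether that Rab5 recruits to early endosomes, rose at 3 h (0.29, adjusted p = 0.00525) and was lower at 18 h than at 3 h (-0.32, adjusted p = 0.00368). Tbc1d1, a Rab GTPase-activating protein, fell at 18 h (-0.41, adjusted p = 0.000324). Of 42 other SNAREs, SM proteins and tethers 4 rose and 8 fell at 3 h, 4 rose and 3 fell at 18 h, and 7 were higher and 3 lower at 18 h than at 3 h. These shares too lie below those of all genes tested. Golga5, a golgin, fell at 3 h (-0.30, adjusted p = 0.00156) and was higher at 18 h than at 3 h (0.29, adjusted p = 0.00169). Scfd2, an SM protein, fell at 18 h (-0.26, adjusted p = 0.00498). Between the lines in water 1 gene of coats and endocytosis was higher and 1 lower, 2 of the other SNAREs and tethers were higher and 1 lower, and limma called 2 of the Rab regulators higher and 0 lower (3 lower at an unadjusted p below 0.05), while 6.01% of all genes tested were called. Each of these 7 calls was lost under 3 to 12 of 18 alternatives, among them leaving out either EGFR water library or Neo water 1.

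Reads of 16 of the 91 genes could come in part from other loci, so their values are uncertain in source. In 14 of them at least 20% of a transcript is at least 95% identical to another gene over at least 200 bases, and in 5 at least 20% of exon bases lie in other genes. Among the genes described above these are Doc2a, Rab43, Rab5b, Rab7, Rab24, Rab2a, Rab6a, Snap47, Syp, Exoc7 and Syt7. Rab4b and Snap23, which are named only below, are also among them.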

How the data were processed

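RNA was measured by RNA-seq in 8 libraries of AtT-20 cells, 2 in each of 4 groups. The authors deposited FPKM for 12193 mm10 loci, and these values were used as deposited; Trimmomatic 0.22, TopHat2 2.0.8, DESeq and HTSeq 0.5.4 appear in the submitters' processing notes. The sources used here do not give the program behind FPKM or the use of strand. FPKM divides by the library total, so abundant transcripts move all others. Depth was estimated from whole-fragment steps of low values in genes with 1 transcript (70.5 to 82.1% of 78 to 96 values whole within 0.1, against 20% at random). The 10874 genes at 1 FPKM or more in at least 2 libraries were tested with limma 3.58.1 (R 4.3.3) after adding 1 and taking log2, in 1 fit of the 4 groups with a variance trend and Benjamini-Hochberg adjustment over all genes of a comparison. Alternatives changed 1 choice at a time: the pseudocount (0.1), the filter (none, or FPKM of at least 5), the scaling (quantile, median-ratio, common sum), the genes (protein-coding only), the groups fitted (only 2), the trend (none), a replicate block, and each library left out. The members and lists were chosen with earlier results of these data known. Named genes were the 6 largest called changes each way without overlap and at 2 FPKM or more, a core of regulated release, the 2 highest genes of each role and up to 3 called genes of each neighbouring list; called genes of a role beyond these were named after their values were seen. Promoters came from RefSeq, transcripts were compared with minimap2 2.31, and tables and figures were made with matplotlib 3.10.9, pandas 2.3.3 and NumPy 2.4.6 under Python 3.11.15. Values of 1 gene that the counts include are not reported here. The analysis was tested on simulated data with independent noise and known fold changes. Recovery was required only for the larger of these, so the test gives no assurance for the smaller changes reported here.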

Additional observations from a re-analysis of the deposited data

Results flagged for a closer look

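For 40 of the 89 genes the difference from the same EGFR water libraries changed between 18 h and 3 h of EGF, tested as 18 h against 3 h in limma. The value after each gene given below is its log2 fold change at 18 h minus that at 3 h. The Rabs with a higher value at 18 h were Rab26 (1.48), Rab3c (0.47), Rab40c (0.37), Rab3a (0.31), Rab24 (0.27), Rab4b (0.25), Rab34 (0.23), Rab5b (0.22), Rab3d (0.18), Rab27a (0.18), Rab15 (0.15), Rab7 (0.14) and Rab1b (0.13). The other genes with a higher value at 18 h were Stx5a (0.54), Syt4 (0.50), Napb (0.33), Unc13a (0.29), Snap23 (0.22), Syt13 (0.22), Snap47 (0.20), Syt2 (0.20), Vamp8 (0.20), Syt11 (0.15) and Stxbp2 (0.15). The Rabs with a lower value at 18 h were Rab8b (-0.39), Rab18 (-0.21), Rab12 (-0.15) and Rab33b (-0.13). The other genes with a lower value at 18 h were Sytl4 (-0.80), Exoc5 (-0.31), Vamp3 (-0.24), Cplx2 (-0.23), Syt9 (-0.22), Syt7 (-0.19), Stx12 (-0.17), Exoc6 (-0.17), Exoc1 (-0.17), Stxbp5 (-0.14) and Snap91 (-0.13). Of all genes tested 33.7% were called in this comparison. The groups hold no water library at 18 h, and in these values the length of EGF treatment and the time in culture cannot be told apart.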

How the results depend on the processing

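Of 141 called values of the genes named, 56 kept their call under every alternative that gave a value (17 or 18 of them) and 85 lost it under at least 1. Scaling to a common FPKM sum gave 5 lower genes at 3 h and 5 lower at 18 h. It also gave 11 higher at 18 h against 3 h and 0 lower in EGFR against Neo. Over all genes tested these counts went, in the same order, from 2142, 2030, 1922 and 315 to 440, 705, 863 and 103. Median-ratio scaling gave 22 higher at 3 h, and over all genes tested 1781 in place of 1283. The cause was not tested. The 2 lower genes of EGFR water against Neo water became 4 at FPKM of at least 5, 5 after median-ratio scaling or quantile normalization, 6 among protein-coding genes, and 1 with no filter, with only the 2 groups fitted or with the replicate block. Leaving out 1 library gave 4 to 13 higher and 7 to 17 lower at 3 h, 5 to 13 lower at 18 h, 13 to 26 higher and 5 to 15 lower at 18 h against 3 h, and 0 to 2 lower in EGFR against Neo. Whether libraries with the same replicate number were handled together is not in the labels (r of deviations -0.17 to 0.31 over 6 pairs of groups). With the replicate block the counts were 11 higher and 16 lower at 3 h, 13 and 12 at 18 h, and 24 and 10 at 18 h against 3 h. Signs turned only for differences that were not called. At 3 h, a common FPKM sum gave Rab27a 0.074, Snap25 0.070, Syt1 0.053 and Syt7 0.0053, median-ratio scaling 0.033, 0.029 and 0.013 for the first 3, and quantile normalization 0.0084 for Rab27a and 0.021 for Snap25. In EGFR against Neo a common sum gave Rab27a 0.023 and Syt7 0.040. Without 1 library the values ran over -0.017 to 0.0074 for Rab27a, -0.037 to 0.014 for Snap25 and -0.079 to 0.030 for Syt1 at 3 h, and for Nsf over -0.0034 to 0.033 at 18 h and -0.041 to 0.0026 at 18 h against 3 h. Depth was estimated at 60.4 to 71.6 M fragments per library, and Rab39 and Doc2a, below 1 FPKM, were not tested. Each group has 2 libraries, which limits the precision of the values.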
